A study of Mus musculus with 15 samples.

Results

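Fos, Fosb, Fosl1, Fosl2, Jun, Junb and Jund encode the Fos and Jun proteins of the transcription factor AP-1. The 7 genes were taken out of 21900 protein-coding genes of the mouse RefSeq annotation, and every measured CpG row inside them or within 5 kb of them was kept. This gave 312 of the 455836 CpG rows of the series, where a row is 1 cytosine of a CpG on 1 strand. A value was present in all 15 mice for 52 of these rows, called complete rows, and was missing in some mice for 260, called partial rows. The genes were selected on the methylation values of Fos in these same data, which differed between withdrawal and enriched mice. For that comparison the values are therefore a description with no test for any of the 7 genes, and no test is given for Fos in any comparison.

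The assay was reduced representation bisulfite sequencing, which sequences short fragments cut at CpG-rich places and reads each cytosine as methylated or not. The tissue was micro-dissected dentate gyrus, the part of the hippocampus that receives input from the entorhinal cortex, of female C57BL/6JRj mice aged 7.5 months. The standard group lived in standard cages for 6 months, the enriched group in an enriched environment for 6 months, and the withdrawal group in enrichment for 3 months and then in standard cages for 3 months, with 5 mice in each group. The labels name no genetic change or drug and give no batch. They do not say whether a library came from 1 animal or from a pool, so all p-values measure the spread between these 15 libraries. The labelled tissue could not be checked against marker genes from methylation percentages, and in tissue a change in the mix of cells and a change of methylation within cells cannot be told apart. Read counts and coverage were not used here, so the depth behind each percentage is unknown and no counting interval is given.

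AP-1 is a dimer of a Jun protein with a Fos or a second Jun protein, joined through leucine zippers, that binds short DNA elements near its target genes. In neurons of the dentate gyrus Fos is an immediate early gene: its transcription starts within minutes of synaptic activity, and its protein is a widely used mark of recently active granule cells. Fos proteins form no stable dimer with themselves and need a Jun partner, and Jund is the member that is most steadily expressed.

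The promoters of 6 of the 7 genes were found in a RefSeq promoter table of build GRCm38.p6, which does not list Fosl1. Fosl2 and Junb held the most measured rows in the upstream part of this window and are shown in sequence; both are CpG-rich stretches with low methylation over all mice. Capitals mark the CpGs with a measured cytosine on either strand, and each stretch covers the 250 bases before the gene start, written 5′ to 3′ along the gene. The Fosl2 stretch lies on the plus strand at chr5:32136222-32136471 and the Junb stretch on the minus strand at chr8:84978749-84978998.
Fosl2: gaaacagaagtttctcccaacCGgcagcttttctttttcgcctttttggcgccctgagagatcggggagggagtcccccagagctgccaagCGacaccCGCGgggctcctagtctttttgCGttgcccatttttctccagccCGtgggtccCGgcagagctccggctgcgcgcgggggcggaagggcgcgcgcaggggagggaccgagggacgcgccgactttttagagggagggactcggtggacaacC
Junb: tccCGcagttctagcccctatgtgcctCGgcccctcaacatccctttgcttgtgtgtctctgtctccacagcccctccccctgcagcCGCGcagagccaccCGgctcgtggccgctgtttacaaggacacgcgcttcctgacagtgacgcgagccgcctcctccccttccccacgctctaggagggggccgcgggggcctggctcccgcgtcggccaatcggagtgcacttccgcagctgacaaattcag

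In the Fosl2 stretch 7 of 23 CpGs were measured, and a further measured row is the last base, whose CpG continues past the window. Row means over all mice ran from 0% to 7.71% in these 8 rows, and 3 of them were at 0. In the Junb stretch 5 of 20 CpGs were measured, with row means from 0% to 1.52%. Fos had 0 measured rows in its promoter window, so its results below come from inside the gene. The AP-1 element TGANTCA, searched on both strands in windows of 300 bases, stood in 7.81% of 32817 mouse promoters, and the cyclic AMP element TGACGTCA in 1.79%. Neither string occurred in any of the 6 windows of the AP-1 genes. CCGG, the 4-base string that MspI-type enzymes cut, stood in 52.8% of all promoters and in 5 of these 6.

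Most of the measured DNA at these genes was unmethylated. Of the 312 rows, 293 (93.9%) averaged less than 20%, another 17 fell from there up to 80%, and 2 exceeded that. All mice with a value were at 0 in 120 rows (38.5%). Of all CpG rows 52.4% averaged less than 20% and 18.3% were at 0. Of all rows within 1 kb of a gene end 91.0% averaged less than 20% and 41.2% were at 0. For the AP-1 rows within 1 kb of a gene end these shares were 97.4% and 45.4%. The 196 rows within 1 kb of a gene end averaged 3.15%, against 7.48% over the 144505 such rows of all genes. The 116 rows farther away averaged 8.30%, against 44.8% over 176517 rows of all genes. Junb, Jun and Fosl1 were low throughout, with no row at 20% or above, and averaged 1.37%, 1.58% and 2.63%. Fosb and Fosl2 averaged 5.44% and 6.41%. The methylated rows of Fosl2 lay deep inside the gene. In Fosb the highest rows, 7053 to 7334 bases after the start, lay inside the gene within 1 kb of its 3′ end. Fos, at 13.4%, and Jund, at 18.8%, had few rows, some in a methylated patch.

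**Figure D1:**
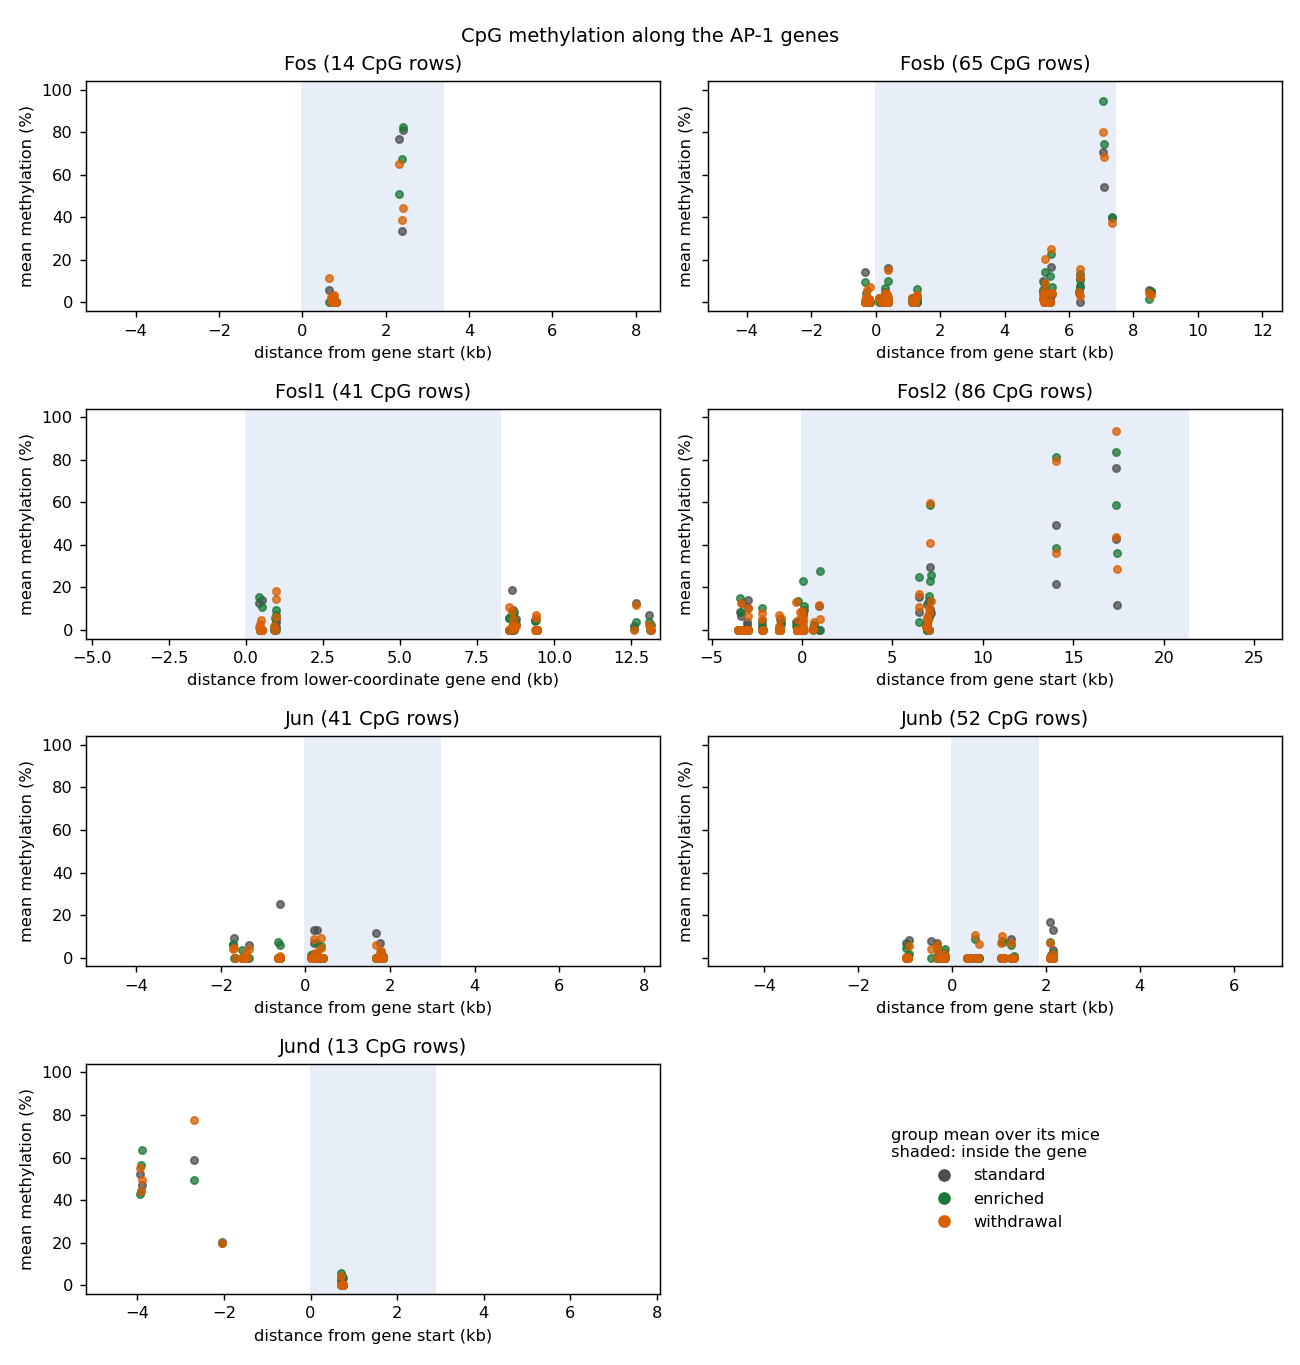
Mean methylation in percent of each CpG row (vertical axis) by distance in kb from the gene start, or from the lower-coordinate end for Fosl1 (horizontal axis), with 1 point for each group mean and the gene shaded. Rows near the gene starts sit close to 0, and the methylated rows are those inside Fos, Fosb and Fosl2 and upstream of Jund.

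Missing values were uneven between mice. Standard mouse 1 had values at 126 of the 312 rows (59.6% missing) and enriched mouse 5 at 181 (42.0% missing). The other 13 mice had between 244 and 311. Means over complete rows use the same rows in every mouse, while partial rows compare fewer mice.

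Fos, on chromosome 12 from 85473890 to 85477274 (plus strand), encodes the founding Fos protein and the best known activity marker among the members. Its 14 measured rows form 2 patches inside the gene. The first patch holds 11 rows from 638 to 810 bases after the start and averaged 0.986%. The second holds 3 partial rows from 2310 to 2421 bases after the start and averaged 58.9%. Exons and introns were not analysed here.

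The difference for which Fos was chosen lies in the first patch and mainly in its first row. At position 85474528 (plus strand, 638 bases after the start) the withdrawal mice had 16.7%, 11.1%, 3.33%, 6.85% and 19.4%. All 5 enriched mice had 0%. The standard mice had 0%, 0%, 10%, 0% and 18.5%. Withdrawal and enriched mice did not overlap at this row, as in 0.51% of the 100562 complete tested rows of the series (0.285% with withdrawal higher), and the standard mice spanned almost the whole range of both. The standard mean was 5.70% ± 8.37 (SD, n = 5), the enriched mean 0% and the withdrawal mean 11.5% ± 6.65. The next complete row, 85474574, was above 0 only in withdrawal mouse 3 (12%) and withdrawal mouse 4 (1.59%). The last complete row, 85474578, was at 0 in all 15 mice.

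Averaged over these 3 complete rows, Fos was at 5.56%, 3.70%, 5.11%, 2.81% and 6.45% in the withdrawal mice and at 0% in every enriched mouse. The standard mice were at 0%, 0%, 3.33%, 0% and 6.17%. Each withdrawal mouse was thus above each enriched mouse, and 3 of the 5 standard mice shared the enriched value of 0. The standard mean was 1.90% ± 2.79, the enriched mean 0% and the withdrawal mean 4.73% ± 1.46 (n = 5 each). Withdrawal and enriched mice did not overlap in 0.903% of all gene ends (0.642% with withdrawal higher) and in 0.777% of all gene regions (0.496% with withdrawal higher). Since this contrast chose the gene, nothing is read from these shares.

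The 8 partial rows of the first patch, 740 to 810 bases after the start, lacked values in standard mice 1 and 5 and enriched mouse 1. Of these rows 6 were at 0 wherever measured. The row at 740 bases had 5.88% in standard mouse 3 and 14.9% in withdrawal mouse 4, and the row at 754 bases had 9.52% in withdrawal mouse 4 and 8.33% in withdrawal mouse 5. No enriched mouse was above 0 at any row of the patch. Over the 11 rows the withdrawal mice averaged 1.52%, 1.01%, 1.39%, 2.99% and 2.77%, a group mean of 1.93% ± 0.884. The standard mice averaged 0%, 0%, 1.44%, 0% and 6.17%, a group mean of 1.52% ± 2.67. Standard mouse 5, measured at the 3 complete rows alone, was the highest of all 15.

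The second patch of Fos ran the other way. At 85476311 (minus strand, 2421 bases after the start), which had the widest difference between withdrawal and enriched means of all 312 rows, the withdrawal mice had 86.4%, 8.70%, 28%, 61.7% and 37.5%. The enriched mice had 80%, 100%, 50% and 100%, with no value for mouse 5. The standard mice had 70.4%, 70.8%, 92.3% and 90%, with no value for mouse 1. Withdrawal mice 1 and 4 lay within the range of the enriched mice, so the groups overlapped. The standard mean was 80.9% ± 11.9 (n = 4), the enriched mean 82.5% ± 23.6 (n = 4) and the withdrawal mean 44.5% ± 30.2 (n = 5), so withdrawal minus enriched was -38.0 points. At 85476294, on the same strand, the difference was -28.8 points, and at 85476200 it was 13.7 points with 3 enriched mice. Over the patch the same groups averaged 64.4% ± 17.8 (n = 4), 67.3% ± 21.9 and 49.3% ± 12.8 in that order.

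With the partial rows included, the mean over the Fos region turned: withdrawal minus enriched was -1.19 points in place of 4.73, and withdrawal minus standard was -2.21 in place of 2.83. With the median over the complete rows withdrawal minus enriched was 0.984 points.

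**Figure D2:**
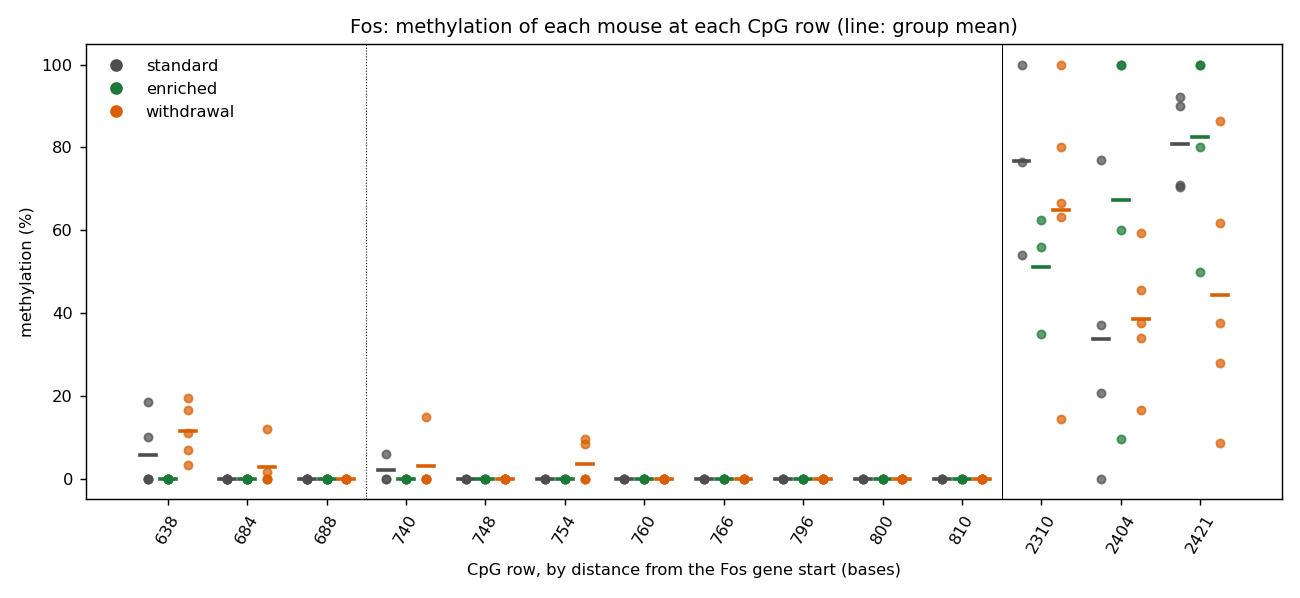
Methylation in percent (vertical axis) of each mouse at the 14 Fos rows, ordered by distance in bases from the gene start (horizontal axis), with a bar at each group mean; the 3 complete rows stand left of the dotted line and the second patch right of the solid line. The enriched mice are all at 0 up to 810 bases, where withdrawal mice reach 19.4%, and at 2421 bases withdrawal mice spread from 8.70% to 86.4%.

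Other genes had differences as large as that of Fos. Gene ends with at least 3 complete rows numbered 4207, and in 199 of them (4.73%) withdrawal minus enriched was at least as large as in Fos, while the median gene end was at 0.0717 points. The same was the case for 85 (2.32%) of the 3666 gene ends that averaged less than 20%. All enriched mice were at 0 in 141 gene ends, and in 8 of these every withdrawal mouse was above 0. The 4207 gene ends include Fos, and some neighbouring genes, such as Apoc2 and Apoc4, have the same value. Since this contrast chose Fos, nothing is read from these counts and shares.

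**Figure D3:**
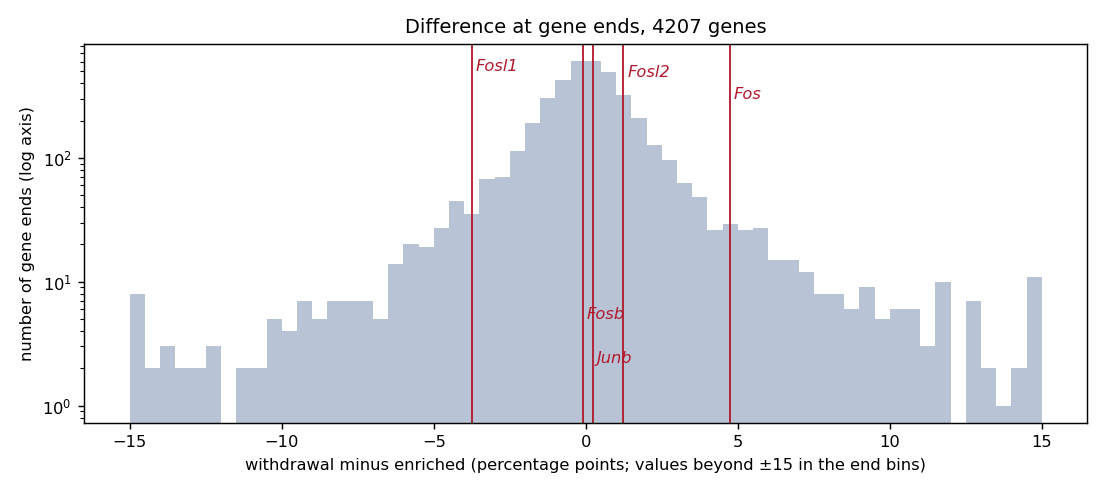
Number of genes (vertical log axis) by withdrawal minus enriched difference at the gene ends in percentage points (horizontal axis), over 4207 genes, with lines at the 5 AP-1 genes that had at least 3 complete rows there. Fos is at 4.73 and Fosl1 at -3.76, while Fosb, Junb and Fosl2 lie between -0.0833 and 1.24.

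The genes whose gene-end methylation ran most like that of Fos over the 15 mice, among 4100 genes, were Xrn2, Rpl35a, Cabin1, Mtrr and Fastkd3, with a Pearson r of 0.822, 0.801, 0.801, 0.791 and 0.791. Mtrr and Fastkd3 share the same 3 rows. Rpl35a was at 0% in every enriched mouse, at 0.444% ± 0.724 in the standard group and at 2.87% ± 1.92 in the withdrawal group. Xrn2 was at 0.269% ± 0.385, 0.856% ± 0.776 and 2.78% ± 1.77 in the same order. These 5 are the top of a ranking and share libraries and depth with Fos, so the values are a description.

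Fosb, on chromosome 7 from 19302696 to 19310118 (minus strand), encodes a Fos protein whose truncated form ΔFosB accumulates with repeated stimulation. Its 65 rows lie in 8 patches. The 3 patches between 332 bases before and 1277 bases after the start averaged 0.963% to 1.62%, and the 2 rows 7053 and 7101 bases after the start averaged 72.5%. The complete row 19302784, 7334 bases after the start, averaged 39.0%. It lies within 1 kb of the 3′ end, so the Fosb gene-end mean includes it. Over its 13 complete rows Fosb had a standard mean of 6.22% ± 2.97, an enriched mean of 6.94% ± 1.63 and a withdrawal mean of 6.83% ± 1.64 (n = 5 each). The standard mice were at 1.51%, 8.5%, 6.33%, 8.97% and 5.77%, and the other 10 mice lay between 4.54% and 9.17%, within the standard range except for withdrawal mouse 1.

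At the Fosb row 19303788, 6330 bases after the start, all standard mice had 0%. The enriched mice had 0%, 6.06%, 2.27%, 21.2% and 7.14%, and the withdrawal mice 4.92%, 9.38%, 0%, 0% and 0%. Enriched mouse 1 shared the standard value, so the groups met at 0. Enriched against standard had a limma p of 0.0282 and an adjusted p of 0.892. At the neighbouring row 19303785 the standard mice ran from 0% to 28.6% with a median of 3.57%, the enriched mice from 9.30% to 17.4% and the withdrawal mice from 3.95% to 20%. The partial row 19310450, 332 bases before the start and chosen after its values were seen, had 18.2%, 21.2%, 14.1% and 4.55% in standard mice. There 4 of 5 withdrawal mice had 0% and withdrawal mouse 3 had 6.67%, with a limma p of 0.0286 and an adjusted p of 0.911. The enriched mice had 0%, 39.1%, 0% and 0%.

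Fosl1, on chromosome 19 from 5447698 to 5455938, encodes FRA-1, a Fos protein without the transactivation domain of Fos. Its 41 rows were all under 20%, at both ends of the gene and up to 4893 bases beyond it. Other genes, Fibp and Ccdc85b, also reach into this window. The 9 complete rows all lay outside the gene, beyond its higher-coordinate end, so the values over them include no CpG inside Fosl1. Over 9 complete rows the standard mice had 15.2%, 8.64%, 6.93%, 3.17% and 0.945%, the enriched mice 5.22%, 0%, 8.54%, 5.84% and 0.278%, and the withdrawal mice 3.10%, 0.453%, 0%, 6.09% and 4.59%. The groups overlapped widely, with standard mouse 1 above all others. The standard, enriched and withdrawal means were 6.98% ± 5.51, 3.98% ± 3.72 and 2.85% ± 2.62. Withdrawal minus standard was -4.13 points, with a limma p of 0.142 and an adjusted p of 0.970. Without standard mouse 1 it was -2.08 points, with the partial rows -0.800, and the median over rows turned it to 1.37. At 5456349, just beyond the gene, the standard mice had 34.6%, 24.6%, 35.7%, 0% and 0%, while 4 of 5 mice of each other group had 0%. The exceptions were enriched mouse 4 (37.5%) and withdrawal mouse 4 (9.59%). Withdrawal against standard had a limma p of 0.0647 and an adjusted p of 0.911 at this row.

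Fosl2, on chromosome 5 from 32136472 to 32157840 (plus strand), encodes FRA-2. It had the most rows of the 7 genes, 86 in 11 patches, from 3522 bases before the start to 17392 bases after it. The 33 rows around the start, which include the sequence shown above, averaged 1.60%, and the 2 patches from 14030 bases on averaged 51.1% and 50.8%. Over 12 complete rows the standard mice had 3.0%, 7.66%, 12.0%, 7.63% and 4.33%. The enriched mice had 14.8%, 11.5%, 8.28%, 13.5% and 8.37%, and the withdrawal mice 13.4%, 13.7%, 10.8%, 9.24% and 11.8%. Of the 5 standard mice 4 were below every enriched and withdrawal mouse, and standard mouse 3 lay among them.

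Fosl2 thus had a standard mean of 6.93% ± 3.5, an enriched mean of 11.3% ± 2.97 and a withdrawal mean of 11.8% ± 1.84. Enriched minus standard was 4.39 points, or 0.55 (SE 0.21) as a log2 ratio, with a limma p of 0.0223 and an adjusted p of 0.813. Withdrawal minus standard was 4.88 points, or 0.61 (SE 0.21), with a limma p of 0.0126 and an adjusted p of 0.952. Both comparisons use the same standard mice and neither passed the threshold of 0.05. With the partial rows included the differences were 1.84 and 1.09 points, and with the median over rows -0.366 and 0.307.

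Most of the Fosl2 difference came from 2 rows deep in the gene, 14030 and 14055 bases after the start. At 32150527, chosen after its values were seen, the standard mice had 28.6%, 68.2%, 78.4%, 43.8% and 28%. The enriched mice had 100%, 80%, 72.5%, 91.7% and 62.2%, and the withdrawal mice 85.7%, 81.0%, 66.7%, 76.9% and 86.7%. Standard mice 2 and 3 overlapped the other groups and the other 3 were below them. At 32150502, on the same strand, the group means were 21.6% ± 16.9, 38.6% ± 23.2 and 36.1% ± 16.2. Upstream, at 32134263 (2209 bases before the start), the standard mice had 0%, 0%, 2.16%, 0% and 2.88%. There the enriched mice had 16.7%, 10.5%, 8.14%, 0% and 16.9%, and the withdrawal mice 5.81%, 15.4%, 4.20%, 3.52% and 10.7%. Each withdrawal mouse exceeded each standard mouse at this row, and enriched mouse 4 was at 0. It was the 1 row without overlap between withdrawal and standard mice among the 35 complete tested rows of the AP-1 genes, against 0.532% of such rows over the series (0.317% with withdrawal higher). The limma p was 0.0207 for enriched and 0.0455 for withdrawal against standard, with adjusted p-values of 0.892 and 0.911. At a CpG 7099 and 7100 bases after the start, measured in part of the mice, the opposite strands differed: 32143571 averaged 10%, 58.6% and 40.8% in the 3 groups in the usual order (n = 3, 3 and 4), and 32143572 averaged 29.8%, 22.9% and 59.5% (n = 3, 4 and 5).

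**Figure D4:**
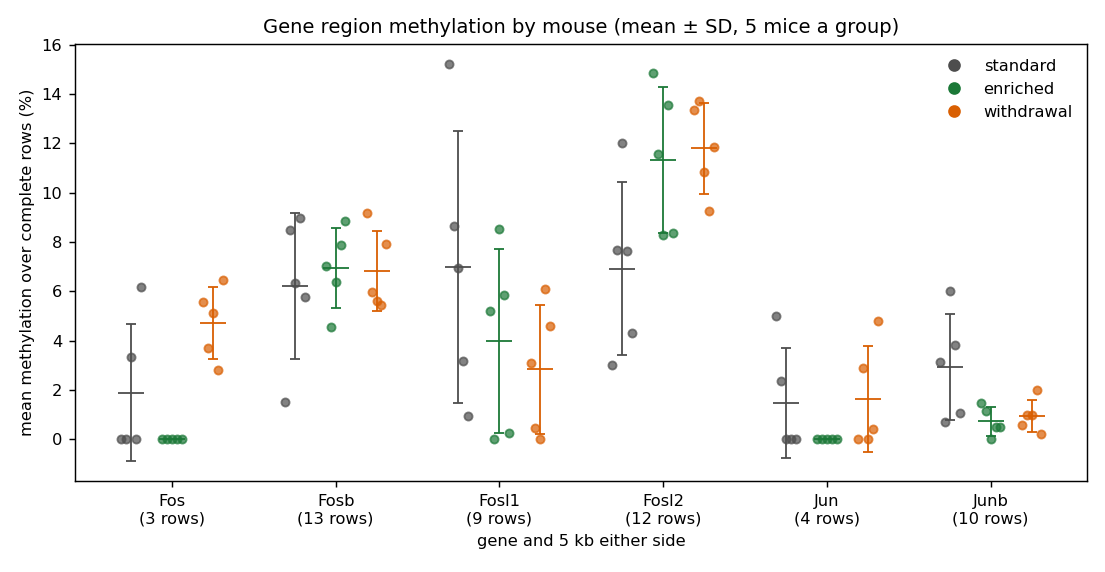
Mean methylation in percent over complete rows (vertical axis) of each mouse for 6 AP-1 genes with 5 kb either side (horizontal axis), with the group mean and SD over 5 mice. Fos is at 0 in all enriched mice, Fosl2 is lowest in 4 standard mice, and Junb reaches 6.00% in standard mice and at most 1.99% in the others.

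Jun, on chromosome 4 from 95049036 to 95052222 (minus strand), encodes the principal Jun protein, a target of the JNK kinases. The antisense gene Junos overlaps its window. All 41 rows were under 20%, in 4 patches that averaged 1.03% to 1.78%. The 4 complete rows, all at 1341 bases before the start or farther, gave 0% in every enriched mouse. The standard mice had 5%, 2.38%, 0%, 0% and 0%, and the withdrawal mice 0%, 2.91%, 0%, 0.439% and 4.79%. Standard and withdrawal mice each included values at the enriched level of 0. The standard, enriched and withdrawal means were 1.48% ± 2.22, 0% and 1.63% ± 2.14. Enriched against standard had a limma p of 0.184 and an adjusted p of 0.895. At 95053563 the standard mice ran from 0% to 20%, all enriched mice were at 0 and the withdrawal mice ran from 0% to 11.6%. At 95053634 the single value above 0 was 12% in withdrawal mouse 5.

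Junb, on chromosome 8 from 84976909 to 84978748 (minus strand), encodes a Jun protein that can limit Jun activity and is itself an immediate early gene. Prdx2 also reaches into its window. The 52 rows, all within 1 kb of a gene end, averaged 0.831% to 1.79% by patch. The 10 complete rows all lay outside the gene, 7 past its 3′ end and 3 before its start. Values over them therefore include no CpG inside Junb. Over 10 complete rows the standard mice had 3.13%, 0.707%, 6.00%, 3.81% and 1.09%. The enriched mice had 1.48%, 1.16%, 0%, 0.517% and 0.5%, and the withdrawal mice 0.603%, 0.977%, 0.975%, 1.99% and 0.236%. Standard mice 1, 3 and 4 were above all others, and standard mice 2 and 5 lay among them.

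The Junb standard, enriched and withdrawal means were 2.95% ± 2.15, 0.730% ± 0.585 and 0.956% ± 0.653. Enriched minus standard was -2.22 points, or -0.47 (SE 0.18) as a log2 ratio, with a limma p of 0.0197 and an adjusted p of 0.811. Withdrawal minus standard was -1.99 points, or -0.41 (SE 0.18), with a limma p of 0.0372 and an adjusted p of 0.952. Without standard mouse 3 the differences were -1.45 and -1.23 points, with the partial rows -0.692 and -0.566, and the median over rows gave 0 for both. At 84976589, past the gene's 3′ end, standard mice 1 and 3 had 29.4% and 35.3% and the other 3 had 0%. No enriched mouse there exceeded 5.17% and no withdrawal mouse 5.41%.

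Jund, on chromosome 8 from 70697739 to 70700616 (plus strand), had 13 rows, of which 1 was complete, and was not tested as a gene. The 8 rows 704 to 745 bases after the start averaged 1.12%. Upstream, 3 rows 3884 to 3939 bases before the start averaged 50.5% and a row 2692 bases before it 63.8%. At the complete row 70695685, 2054 bases before the start, the standard mean was 20.5% ± 24.3 and the enriched mean 19.7% ± 16.4 (n = 5 each), with the withdrawal mean between them. Values ran from 0% to 62% in standard, 0% to 36.4% in enriched and 4% to 48% in withdrawal mice, so the spread within groups was far wider than the distance between their means.

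Outside Fos, which was not tested, no row, region or gene end of the AP-1 genes passed an adjusted p of 0.05 in limma. This was the case across the series as well, with 0 of 350663 CpG rows called in each comparison. For enriched against standard 9 of the 167 rows tested outside Fos (5.39%) had an unadjusted p under 0.05, against 4.67% (16390) of all rows. Of these, 7 were in Fosl2 and 2 in Fosb. For withdrawal against standard 2 of 167 rows (1.2%) did, 1 in Fosb and 1 in Fosl2, against 4.3% (15079) of all rows. For withdrawal against enriched the share over all rows was 4.18% (14644). Of the 167 rows 69 were higher and 71 lower in enriched than in standard mice, and 80 were higher and 71 lower in withdrawal mice. The median difference was 0 points in both. Fos is left out of the following values, since its own values chose the genes. By gene region, enriched minus standard was 0.718 (Fosb), -3.00 (Fosl1), 4.39 (Fosl2), -1.48 (Jun) and -2.22 points (Junb). The median over all regions was 0.0744. Withdrawal minus standard was 0.609, -4.13, 4.88, 0.150 and -1.99 points in the same order, against 0.312 over all regions. By gene end outside Fos, enriched minus standard was -0.116 (Fosb), -3.61 (Fosl1), -0.501 (Fosl2) and -2.22 points (Junb). The median over all gene ends was 0. Withdrawal minus standard was -0.199, -7.37, 0.736 and -1.99 points in that order, against 0.112 over all gene ends. With the partial rows, the gene ends of Fosb, Fosl1 and Fosl2 were instead higher in enriched than in standard mice, by 0.0412, 0.0478 and 0.515 points.

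Among gene regions 0 of 9267 were called in each comparison. Fosl2 and Junb were the 2 of 5 AP-1 genes with an unadjusted limma p under 0.05, in both comparisons with standard mice, where 5.94% (550) and 5.13% (475) of all regions had one. The share for withdrawal against enriched was 4.61% (427). No member's enriched or withdrawal mice lay wholly outside the standard range, which 0.745% and 0.788% of all regions did, or 0.547% and 0.618% of all gene ends. Among gene ends 0 of 4207 were called, and Junb had an unadjusted limma p under 0.05 in both comparisons with standard mice, where 5.37% (226) and 4.85% (204) of all gene ends had one. The share for withdrawal against enriched was 5.13% (216).

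Partners and regulators of AP-1, 40 genes such as the ATF and MAF families, SRF with its cofactors, CREB and the MAP kinases, were measured in 23 gene regions. Of these 12 were higher and 11 lower in enriched than in standard mice, with a median of 0.107 points against 0.0744 over all regions. Mapk9, which encodes JNK2, a kinase that phosphorylates Jun, was the 1 of 23 regions with an unadjusted limma p under 0.05. Over all regions 5.94% had one. Mapk9 was averaged over 3 complete rows, and its groups overlapped, with enriched mouse 1 at 44.6% and standard mouse 1 at 44.4%. Its standard mean was 52.9% ± 8.59, its enriched mean 39.0% ± 6.05 and its withdrawal mean 47.6% ± 7.03. Enriched minus standard was -13.9 points, with a limma p of 0.00628 and an adjusted p of 0.695. For withdrawal against standard 11 regions were higher and 12 lower, none at an unadjusted p under 0.05, with a median of -0.210 points against 0.312. At the 16 measured gene ends of the list, 4 were higher and 12 lower in enriched than in standard mice, with a median of -0.644 points against 0 over all gene ends, none at an unadjusted p under 0.05. In withdrawal mice 9 were higher and 7 lower, with a median of 0.107 points against 0.112. At gene ends, Mrtfb, a cofactor of SRF, was at 0% in all standard mice and averaged 2.34% ± 1.5 in withdrawal mice, with a limma p of 0.00168 and an adjusted p of 0.896. Withdrawal mouse 4 was also at 0%, so the groups met at this gene end. Mrtfb was the 1 of 16 measured gene ends with an unadjusted limma p under 0.05 in that comparison. Over all gene ends 4.85% had one. Over the 18 complete rows of the Mrtfb region the standard mean was 26.8% ± 2.67 and the withdrawal mean 27.2% ± 1.83. Withdrawal against standard had a limma p of 0.774 and an adjusted p of 0.989 for that region.

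The level of a row differed by its place within its run of neighbouring CpGs, and in promoter windows by whether it lay in a CCGG. Rows on the same strand at most 100 bases apart were joined into clusters, and those of 3 or more rows were kept, 45 of them at the AP-1 genes. The first row in the 5′ direction averaged 7.21%, the rows between the ends 2.08% and the last row 4.96%. The first row was above the mean of the rows between in 84.4% of these clusters and the last row in 37.8%. In each of the 15 mice the first rows averaged between 3.51% and 9.14% and the rows between averaged from 1.34% to 3.42%. The same order was found over all clusters near gene ends, with 9.54%, 4.18% and 6.85%, the first row being above in 77.4%. In the promoter windows of all genes 97.8% of first rows lay in a CCGG, against 3.94% of the rows between. There, first rows averaged 7.46% in a CCGG and 2.14% outside it. Rows between averaged 6.72% in a CCGG and 2.52% outside it, and last rows 9.51% and 3.74%. The Fos row 85474528, which carries most of the withdrawal to enriched difference, is the first of its cluster of 11 rows. Whether it lies in a CCGG was not analysed here, and the part of cluster place or of CCGG in the Fos difference was not tested.

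**Figure D5:**
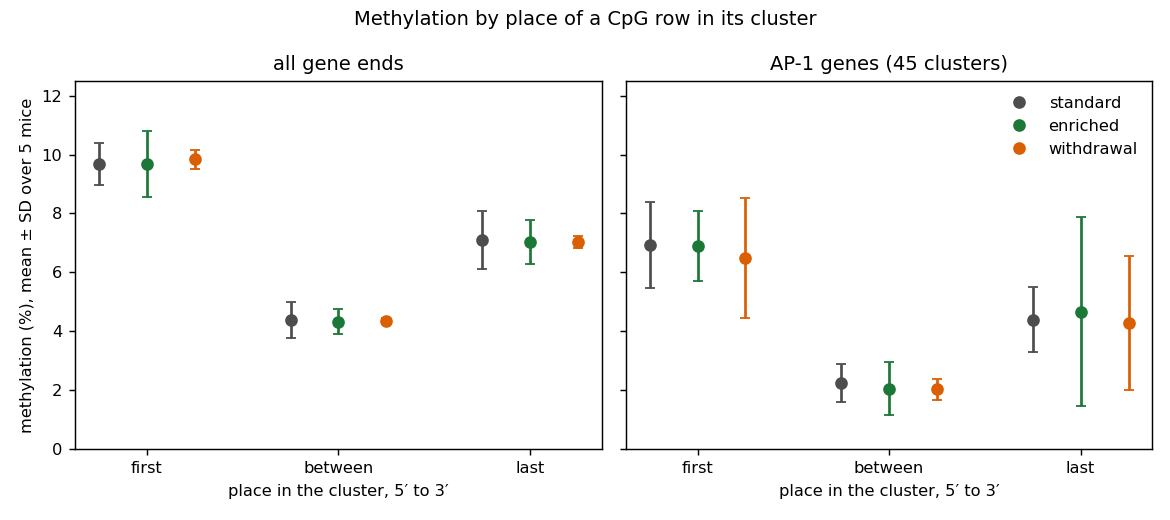
Methylation in percent (vertical axis, mean and SD over 5 mice a group) of the first, between and last rows of a cluster (horizontal axis), for all clusters near gene ends on the left and the 45 AP-1 clusters on the right. First rows are highest in all groups, and the 3 groups lie within each other's SD at each place among the AP-1 clusters.

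Non-CpG cytosines at the AP-1 genes were almost unmethylated. The 1065 such rows averaged 0.534%, and the group ranges overlapped: the standard mean was 0.582% ± 0.132, the enriched mean 0.608% ± 0.252 and the withdrawal mean 0.426% ± 0.102 (n = 5 each). In Fos the 59 non-CpG rows averaged 1.28% ± 1.28, 0.470% ± 0.594 and 0.833% ± 0.329.

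The 5 kb limit fell next to measured rows at 2 genes. At Fosl1 the row just inside, 4893 bases from the gene, averaged 0.762% and the row just outside, at 5010 bases, 0%. At Jund the row 3939 bases away averaged 50.0% and the next, at 5369 bases, 19.9%. For Fos the nearest row outside lay 6481 bases away and averaged 90.2%.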

How the data were processed

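The deposited table gives percent methylation for each cytosine and strand in 15 mice, made by the authors with Trim Galore 0.4.0, cutadapt 1.8.1, Bismark 0.16.1 and methylKit 1.5.2 on build mm10, per the submitters' processing notes. A coverage minimum, filters and pooling are not given in the sources used here. The table runs through the chromosomes in 2 runs. All 40405 rows of the first run in RefSeq promoter windows lay on a CG, and 0 of 117652 rows of the second did, so the first run was used as CpG rows. No column was left unused.

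Genes came from RefSeq (GRCm38.p6). The file names no build, and the match of rows to CG was checked on that assembly. The gene table gives no strand, so a gene end stands for 1 kb either side of both ends. Regions (the gene with 5 kb either side) and gene ends were means over at least 3 complete rows. CpG rows with a range of at least 5 points over the mice were tested, without the Y chromosome and the mitochondrial genome, which left 174 of the 312 AP-1 rows, 7 of them in Fos. Values were transformed as log2((percent + 5)/(100 - percent + 5)) and fitted in limma 3.58.1 (R 4.3.3) with all 3 groups and a variance that follows the mean. Tests were two-sided, with Benjamini-Hochberg adjustment over all rows, all regions or all gene ends, and called at an adjusted p under 0.05. The fit was checked on simulated data.

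The members, lists and tests were chosen with earlier results of these data known. Named rows are, for each gene, the tested row with the smallest limma p in either comparison with standard mice (complete rows first), the complete Fos rows and the row with the widest withdrawal to enriched difference. The partner list names the genes with an unadjusted p under 0.05. The genes like Fos are the 5 with the highest Pearson r among gene ends with a range of at least 2 points. No pairing by replicate number was seen in the values. Same-numbered mice of different groups correlated in their deviations between -0.0146 and 0.0132, and 0 of 15 pairs passed 0.1. These correlations cannot show whether mice were matched in the design. Alternatives were another offset, no transform, no range filter, complete rows alone, both runs together, partial rows in means, other window widths, no minimum of rows, medians, a replicate block, the start end alone and leaving out each mouse.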

Additional observations from a re-analysis of the deposited data

Results flagged for a closer look

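A mouse stood far from the other 4 of its group in 5 of 56 groups of named values. Chance gives about 1 in 20 for normally distributed values, which percentages with many values at 0 are not. Where the other 4 mice are all at 0, as in 3 of the 5, any value above 0 stands out by this measure. At the Fos row 85474574 withdrawal mouse 3 had 12% and the other withdrawal mice 0% to 1.59%. At the Fosb row 19303785 standard mouse 5 had 28.6% and the others 0% to 5.77%. At the Fosl1 row 5456349 enriched mouse 4 had 37.5% and withdrawal mouse 4 had 9.59%, with the other 4 mice of each group at 0. At the Jun row 95053634 withdrawal mouse 5 had 12% and the others 0%.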

How the results depend on the processing

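The alternatives were run on the regions, the gene ends and the named rows. Outside Fos, which was not tested, none of these passed an adjusted p of 0.05 in limma against standard mice under any alternative run, and the smallest adjusted p was 0.646 when a mouse was left out and 0.702 otherwise. Of the differences of the AP-1 genes, 402 of 420 under other alternatives and 959 of 984 with a mouse left out stayed the same. For tested differences this meant that the direction did not turn. For the others, and for every median over rows, it meant a move within the spread between mice, whatever the direction. Over all genes, where no feature was called, 1 CpG row was called between withdrawal and enriched mice without the range filter, and 1 gene region between enriched and standard mice with partial rows and 1 with 2 kb either side. With a mouse left out the counts of gene regions ran from 0 to 4 for enriched against standard (4 without standard mouse 3, 1 without enriched mouse 3), 0 to 3 for withdrawal against standard and 0 to 2 for withdrawal against enriched (both highest without enriched mouse 4). Gene ends ran from 0 to 2 for enriched against standard (without standard mouse 5) and from 0 to 1 in the other comparisons (without enriched mouse 4). CpG rows stayed at 0. For these counts the cause was not tested.

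With partial rows, which add the second patch and drop mice, Fos gene ends gave 0.669 points for enriched minus standard, -2.64 for withdrawal minus standard and -3.31 for withdrawal minus enriched. Partial rows also turned the Jun region for withdrawal minus standard (-1.31), Fosb gene ends (0.0412 for enriched and 0.754 for withdrawal minus standard), and Fosl1 and Fosl2 gene ends for enriched minus standard (0.0478 and 0.515). The start end alone, an alternative chosen after seeing the data, gave 0.361 for Fosb in withdrawal minus standard, and 0.854 for Junb in withdrawal minus enriched. The median over rows turned Fosl1 to 1.37 points in withdrawal minus standard and Fosl2 to -0.366 in enriched minus standard.

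Leaving out 1 mouse turned differences that were small beside their spread. Fosb regions ran from -0.460 to 1.41 for enriched and from -0.569 to 1.30 for withdrawal minus standard, turning without standard mouse 1. The Jun region ran from -0.640 to 1.03 for withdrawal minus standard. Fosb gene ends ran from -1.51 to 1.21 for enriched and from -1.80 to 1.13 for withdrawal minus standard, and Fosl1 gene ends from -6.10 to 0.225 for enriched minus standard, turning without standard mouse 1. The Jun row 95053563 ran from -3.68 to 1.72 for withdrawal minus standard. The Jund row 70695685 ran from -5.91 to 9.59 for enriched and from -7.51 to 9.87 for withdrawal minus standard. A fit with the replicate block called 0 rows, regions and gene ends in each comparison and changed no call.

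Percentages came without coverage, so a row read from few fragments counts as much as one read from many.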
